A study of Zea mays with 12 samples.

Results

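The comparison described here set *zmmsh7-2* mutant seeds against wild-type (WT) seeds of maize (*Zea mays*), both collected 14 days after pollination (DAP). Its members were chosen by their labels alone, as the 3 mutant and 3 wild-type libraries of the 14 DAP count table, 6 of the 12 RNA-seq libraries of the series. The mutant libraries carry the genotype label MSH7 knockout and the titles mark them as CRISPR plants with the allele code aa, while wild-type libraries are coded AA. The other 6 libraries, from mutant and wild-type seeds at 7 DAP, were used only for contrast. The inbred background, whether the mutant goes back to a single edited plant, and whether replicates were separate ears are details the labels do not state, so the p-values take their error from these libraries alone, a spread that may be technical. Only nuclear gene models (Zm00001d identifiers of B73 RefGen_v4) are described.

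MSH7 belongs to the MutS homolog family, which recognises mispaired bases in DNA. In *Arabidopsis* it takes part in mismatch repair and in limiting recombination between diverged sequences. A maize seed combines the embryo, the triploid endosperm and the maternal pericarp. The period compared lies early in grain filling, when the endosperm turns from cell division to the synthesis of starch and storage protein. The deposited tables hold identifiers without names, and 0 of the 44146 nuclear identifiers occur in the RefSeq gene table used here (assembly Zm-B73-REFERENCE-NAM-5.0). The genes below are therefore given by identifier, with no product, and MSH7 itself, marker genes of seed tissues and named pathways were not analysed here.

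Sequencing depth, as total counts, ranged between 16854595 and 20575609 in the mutant and, in wild type, between 20066289 and 21932590 at 14 DAP, with at least 99.9% of counts on nuclear genes. Of the nuclear gene models, 10970 had 0 counts in all 6 libraries, and 23678 passed the filter on low counts and were tested. Replicates were close, with a median coefficient of variation of 3.95% in mutant and 4.25% in wild-type seeds over the 13402 nuclear genes with a mean of at least 10 CPM (read counts divided by the library total, after TMM scaling, and put on a common scale). In that set 6 genes had a coefficient of variation above 30% in the mutant, 2 in wild type and 0 in both.

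Mutant seeds differed from wild type at most nuclear genes, mostly by little, and the large changes were mainly decreases. With edgeR's quasi-likelihood test at a Benjamini-Hochberg adjusted p below 0.05, 15109 nuclear genes were called (63.8% of those tested), 7520 with more transcript in the mutant (31.8%) and 7589 with less (32.1%). The even split depends on the scaling, since scaling by library totals alone gave 9492 higher and 6336 lower, the median log2 fold change of all tested nuclear genes then being 0.10, against 0.01 with TMM factors. The median absolute log2 fold change of called genes was 0.48, and 8857 of them, 58.6%, changed by no more than 1.5-fold. Increases of more than 2-fold numbered 1035 (4.37%) and decreases 2097 (8.86%). Scaled by library totals only, they numbered 1221 and 1847. Past 4-fold there were 188 increases and 576 decreases, past 8-fold 47 and 206, and past 16-fold 16 and 71. The filter on low counts admits a gene that is abundant enough in 1 genotype alone, and such genes could hardly be tested without differing. Genes with no library of the other genotype at the filter's level were 224 of the increases and 330 of the decreases past 2-fold, and 40 of 47 and 128 of 206 past 8-fold. Decreases thus made up 50.2% of all calls, 67.0% of those beyond 2-fold, 75.4% of those beyond 4-fold and 81.4% of those beyond 8-fold. At 7 DAP, in libraries not shared with this comparison, 1490 nuclear genes rose (6.22%) and 2041 fell (8.52%) by over 2-fold. Decreases there made up 57.8% of calls beyond 2-fold, 69.0% beyond 4-fold and 71.5% beyond 8-fold. The difference between the stages in these shares was not tested.

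**Figure D1:**
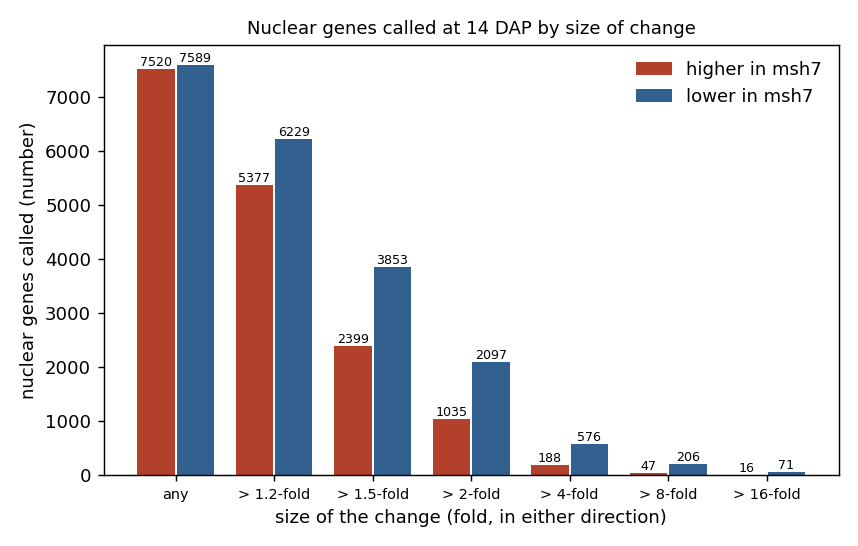
Number of nuclear genes called higher (red) or lower (blue) in *zmmsh7-2* seeds at 14 DAP, by the size of the change on the horizontal axis; each class includes the larger ones. The bars are nearly equal for calls of any size, 7520 and 7589, while beyond 8-fold there are 47 higher and 206 lower.

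The libraries of the genotypes did not overlap for 15686 tested nuclear genes (66.2%), with the 3 mutant values above all wild-type values at 7840 genes (33.1%) and below them at 7846 (33.1%). Of the called genes, 94.2% were separated in this way. A test against a change of 1.2-fold, in place of any change, called 3654 nuclear genes higher and 4956 lower.

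Calls were most numerous among transcripts with many reads, and changes beyond 2-fold among scarce transcripts. Genes were ranked by mean CPM, a read share that is not corrected for gene length, and cut into 4 groups of equal size. In the scarcest group, of 5919 genes at up to 3.61 CPM, 1312 rose and 1628 fell in the mutant, 702 and 1054 of them past 2-fold. In the most abundant group, of 5920 genes from 37.3 CPM upward, 2355 rose and 2073 fell, but 47 and 177 past 2-fold. The median absolute log2 fold change of called genes was 1.14 in the scarcest group and 0.26 in the most abundant. Scarce genes have larger standard errors, so only larger changes are called among them, and small ones can be called among abundant genes. How much of these contrasts comes from that was not tested. Changes past 8-fold comprised 43 increases and 147 decreases in the scarcest group, 2 and 41 in the next, 2 and 12 in the third and 0 and 6 in the most abundant. Decreases past 2-fold outnumbered increases in each group.

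**Figure D2:**
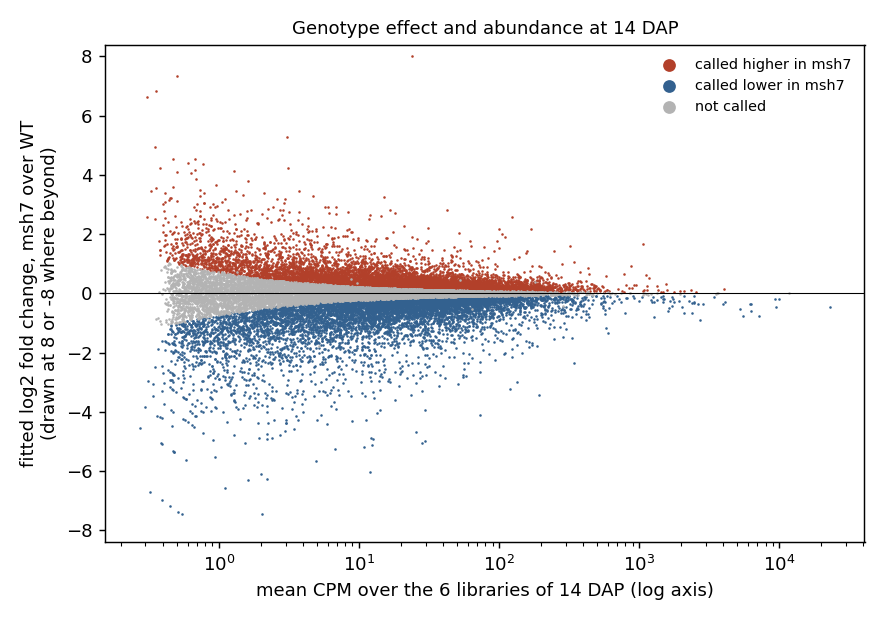
Fitted log2 fold change of *zmmsh7-2* over wild-type seeds at 14 DAP (vertical axis) against mean CPM of the 6 libraries (horizontal, log axis), 1 point per tested nuclear gene. Called genes are red (higher in the mutant) or blue (lower) and the others grey; the blue points reach further from 0 than the red ones at most abundances.

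The transcripts with the most reads took a smaller part of mutant libraries. In each library the single most abundant nuclear gene held 2.00%, 2.00% and 1.98% of nuclear counts in the mutant, against 2.65%, 2.64% and 2.52% in wild type. The 10 most abundant held 8.54% ± 0.10 in *zmmsh7-2* and 10.4% ± 0.24 in WT, the 100 most abundant 23.0% ± 0.09 and 25.4% ± 0.23, and the 1000 most abundant 45.7% ± 0.07 and 47.3% ± 0.17 (mean ± SD of 3 libraries per genotype). No mutant library reached a wild-type one in any of these shares, and each gave p = 0.1 in a two-sided exact permutation test, the smallest that 3 against 3 libraries allow. The shares are nested, so they are not separate results. The lean was not shared by abundant genes in general. Of the 1824 tested nuclear genes at 100 CPM or more, 788 were higher and 648 lower with TMM factors, against 7520 and 7589 of all 23678. Of the 10 genes with the highest mean CPM, 9 were lower in the mutant, 1 was not called and 0 were higher, with TMM factors and also with library totals only. Of all 23678 tested nuclear genes 32.1% were lower with TMM factors, and 6336 genes with library totals only. Log2 fold changes of the 10 most abundant ran from −0.75 to 0.02 with TMM factors. Their median was −0.42, against 0.01 over all tested nuclear genes. In whole-seed RNA, fewer cells of a type and less RNA per cell cannot be told apart. The number of nuclear genes at 1 CPM or more was 21423 ± 6.11 in the mutant and 21683 ± 10.4 in wild type (mean ± SD of 3 libraries per genotype; two-sided exact permutation test, p = 0.1). TMM factors were about 1.03 in mutant and 0.97 in wild-type libraries, which lowers mutant CPM against wild type. No count with library totals only is given, so this gap may depend on the scaling.

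A pair of genes higher in the mutant was chosen by rule, for the largest change and for the highest abundance. Zm00001d023265 had 842, 1013 and 952 counts in the mutant libraries and 0 in each of the 3 wild-type libraries. Mutant seeds thus had 47.7 ± 0.94 CPM (SD, n = 3), at least 320-fold above a floor of 3 counts per wild-type library. The floor covers counting error only. The gene passed the filter on low counts through the mutant libraries alone and was picked for its size of change, so its values are a description and no test is given. At 7 DAP it stood at 14.9 ± 0.24 CPM in the mutant and again at 0 counts in the 3 wild-type libraries, so transcripts of this gene were found in the mutant libraries of both stages and not detected in wild type at this depth. The difference between the stages in its genotype effect cannot be estimated with 0 counts in wild type at both.

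Zm00001d019035 was the most abundant nuclear gene that rose by more than 2-fold, at rank 74 by mean CPM. It had 1677, 1597 and 1591 CPM in mutant seeds, against 549, 510 and 485 CPM in wild-type seeds. The log2 fold change was 1.66 (SE 0.03), or 3.15-fold. The gene was picked from called genes beyond 2-fold without overlap of the libraries, so no test is given for 14 DAP. At 7 DAP it was much more abundant in both genotypes and nearly equal between them, 8548 ± 73.8 CPM in *zmmsh7-2* and 8041 ± 297 CPM in WT (mean ± SD of 3 libraries per genotype; log2 fold change 0.09 with an SE of 0.02, adjusted p = 3.68e-06 in edgeR). The fitted genotype effect at 14 DAP exceeded that at 7 DAP by 1.57 on the log2 scale (SE 0.06, edgeR interaction term). No test is given for this difference, since it uses the 14 DAP values that picked the gene. Levels of this transcript at 14 DAP thus stood further below those of 7 DAP in wild type than in the mutant.

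A pair of genes lower in the mutant was chosen by the same rule. Zm00001d018220 had 0.58, 0.28 and 0.25 CPM in mutant seeds, from 10, 6 and 5 counts, against 23.4, 24.0 and 24.2 CPM in wild-type seeds. It was near the limit of detection in every mutant library and well measured in every wild-type one. Wild-type seeds had 66.8 times the mutant level (95% counting interval 43.6 to 108, exact binomial on the summed counts) and the fitted log2 fold change was −6.04 (SE 0.17). It passed the filter on low counts through the wild-type libraries and was picked for its size of change, so no test is given for 14 DAP. At 7 DAP the gap was small, 4.90 ± 1.37 CPM in *zmmsh7-2* and 8.49 ± 0.45 CPM in WT (mean ± SD of 3 libraries per genotype; log2 fold change −0.78 with an SE of 0.13, adjusted p = 1.18e-07 in edgeR). The fitted genotype effects of the stages differed by −5.26 (14 DAP minus 7 DAP, SE 0.26). This difference uses the 14 DAP values that picked the gene, so no test is given for it either.

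Zm00001d044541 was the most abundant nuclear gene that fell by more than 2-fold, at rank 107 by mean CPM. It had 346, 350 and 331 CPM in mutant seeds, against 862, 888 and 819 CPM in wild-type seeds, with a log2 fold change of −1.32 (SE 0.03). The gene was picked from called genes beyond 2-fold without overlap of the libraries, so no test is given for 14 DAP. At 7 DAP the order was the opposite, 36.0 ± 2.07 CPM in *zmmsh7-2* and 15.5 ± 2.39 CPM in WT (mean ± SD of 3 libraries per genotype; log2 fold change 1.22 with an SE of 0.07, adjusted p = 7.01e-30 in edgeR). The fitted effect at 14 DAP minus that at 7 DAP was −2.54 on the log2 scale (SE 0.10, edgeR interaction term). No test is given for this difference, since it uses the 14 DAP values that picked the gene. This transcript was thus more abundant in the mutant at the earlier stage, when it was scarce, and less abundant in the mutant at 14 DAP.

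**Figure D3:**
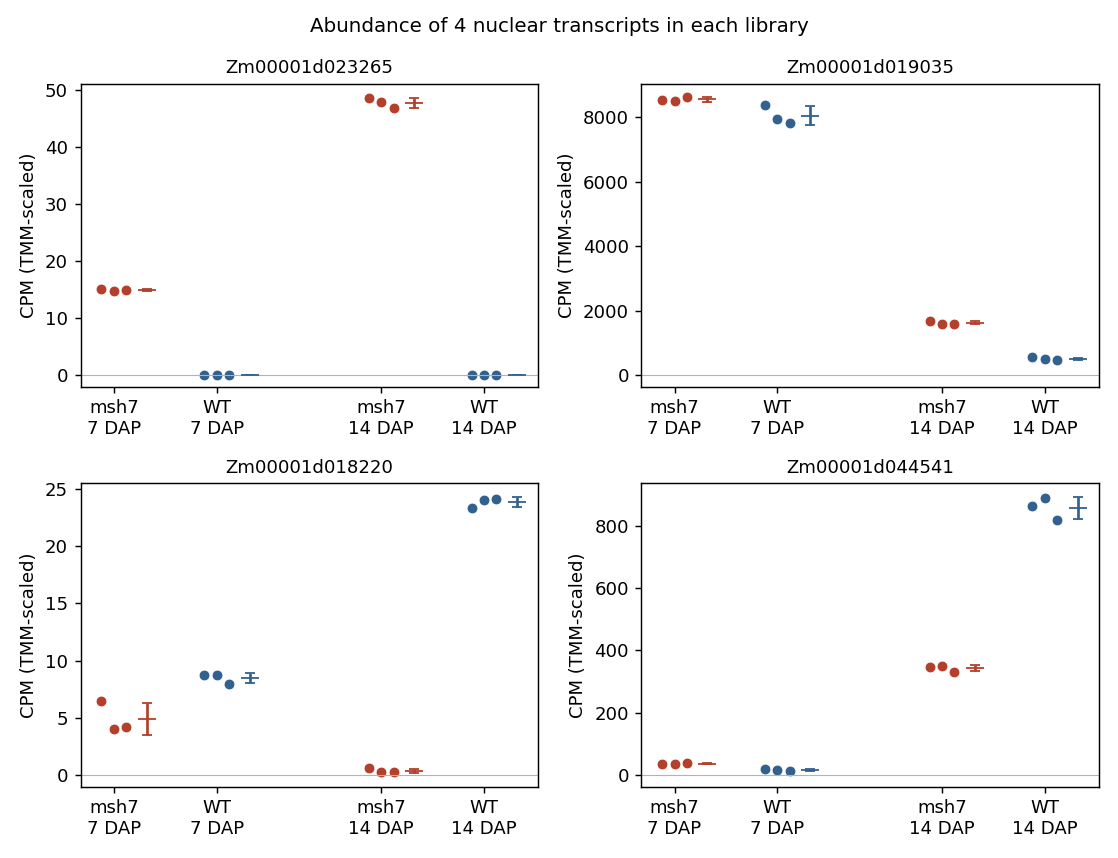
TMM-scaled CPM of the 4 nuclear genes in each library (points) with the mean and SD of 3 libraries (bars beside them), for *zmmsh7-2* (red) and wild type (blue) at 7 and 14 DAP. Zm00001d023265 is at 0 in every wild-type library, and Zm00001d044541 is higher in the mutant at 7 DAP and lower at 14 DAP.

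Complete presence in 1 genotype and absence from the other was rare. With at least 10 counts in each library of 1 genotype and 0 in each library of the other, 4 nuclear genes were found in mutant seeds only and 7 in wild-type seeds only. Zm00001d023265 was the 1 with many counts. The other mutant-only genes summed to between 36 and 59 counts over 3 mutant libraries, and the wild-type-only genes to between 34 and 66 counts over 3 wild-type libraries. With up to 3 counts allowed over the libraries of the absent genotype, the numbers were 10 in the mutant only and 41 in wild type only. At least 30 counts per library left 1 in the mutant only and 0 in wild type only. The count of wild-type-only genes was 13 without mutant replicate 1, 14 without mutant replicate 2, 14 without mutant replicate 3 and 11 without wild-type replicate 3. At 7 DAP, in libraries that did not choose these genes, 3 of the 4 mutant-only genes again had 0 counts in the 3 wild-type libraries. Of the 7 wild-type-only genes, 1 had 0 counts in the mutant at 7 DAP, and it also had 0 in wild type there. The others had up to 14 counts summed over the 3 mutant libraries and up to 20 over the 3 wild-type ones at 7 DAP.

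Among genes whose transcripts accumulate between 7 and 14 DAP, more were lower in the mutant than higher. For this description, tested nuclear genes were grouped by the ratio of their mean CPM over both genotypes at 14 DAP to that at 7 DAP, an average in which the genotypes weigh equally. Of the 1595 genes more than 4-fold more abundant at 14 DAP, 368 were higher in the mutant (23.1%) and 684 lower (42.9%), with a median log2 fold change of −0.18, against 31.8%, 32.1% and 0.01 over all tested nuclear genes. Among these late-rising genes 103 rose (6.46%) and 279 fell (17.5%) by more than 2-fold, against 4.37% and 8.86% of all tested nuclear genes. Their median was 5.11 CPM at 14 DAP, against 13.3 CPM for all tested nuclear genes, and changes beyond 2-fold were most numerous among scarce transcripts. How much of the contrast comes from abundance was not tested. Scaled by library totals only, 441 rose (27.6%) and 599 fell (37.6%), so the direction held. With that scaling 9492 of all 23678 tested nuclear genes rose and 6336 fell, so the background moved as well. At 7 DAP, 27.2% of the 861 that could be tested rose in the mutant and 28.5% fell, against 36.3% and 36.0% of the 22646 nuclear genes tested at both stages. In the test of the difference between stages 253 had a higher effect at 14 DAP and 336 a lower one, 15.9% and 21.1%, against 23.7% and 25.2% over all 23678 tested nuclear genes of 14 DAP. These groups were chosen after results had been seen.

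The late-rising genes held a large share of the RNA, and that share was smaller in the mutant. They made up 20.5%, 20.6% and 20.4% of nuclear counts in mutant libraries at 14 DAP, against 23.7%, 23.7% and 23.4% in wild-type libraries. The genotypes did not overlap (p = 0.1, two-sided, by exact permutation, which cannot go lower). At 7 DAP the larger share was in the mutant, with 1.40% ± 0.007 in *zmmsh7-2* and 1.29% ± 0.002 in WT (mean ± SD of 3 libraries per genotype; p = 0.1 in the same exact test). Of the 10 most abundant nuclear genes 9 were late-rising. Without the 10 most abundant genes the shares at 14 DAP were 13.2% ± 0.02 in *zmmsh7-2* and 14.3% ± 0.05 in WT (mean ± SD of 3 libraries per genotype; exact permutation p = 0.1).

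A narrower group was chosen for near silence at 7 DAP. Of the 69 nuclear genes with at most 3 counts over the 6 libraries of 7 DAP and a mean of at least 1 CPM at 14 DAP, 10 were higher in the mutant (14.5%), 33 were lower (47.8%) and 26 were not called, with a median log2 fold change of −0.39. All tested nuclear genes gave 31.8%, 32.1% and 0.01. By more than 2-fold, 4 rose (5.80%) and 17 fell (24.6%), against a background of 4.37% and 8.86%. They are nearly all scarce, with a median of 2.18 CPM, against 13.3 CPM for all tested nuclear genes. Their log2 fold changes ranged from −3.57 to 5.27. With the demand for at least 5 CPM in 3 libraries, 4 were called higher and 12 lower. All nuclear genes tested under that filter gave 5932 higher and 5902 lower. In the test of the difference between stages, 0 of the 69 had a higher effect at 14 DAP and 1 a lower one (1.45%). All tested nuclear genes gave 23.7% and 25.2%. With almost no counts at 7 DAP, that test can find little in these genes.

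Early genes were those more than 4-fold less abundant at 14 than at 7 DAP. Of 724, 209 were higher in the mutant (28.9%) and 270 lower (37.3%), with a median log2 fold change of −0.09, against 31.8%, 32.1% and 0.01 over all tested nuclear genes. By more than 2-fold, 94 rose (13.0%) and 150 fell (20.7%), against 4.37% and 8.86% of all tested nuclear genes. Both of these shares were above those of the late-rising genes, at 6.46% and 17.5%. Early genes are scarcer, with a median of 2.69 CPM at 14 DAP, against 5.11 CPM for late-rising genes and 13.3 CPM for all tested nuclear genes. Scaled by library totals alone, 235 early genes rose (32.5%) and 251 fell (34.7%). All tested nuclear genes gave 9492 higher and 6336 lower with that scaling. At 7 DAP, 36.2% of the early genes were higher in the mutant and 49.3% lower, against 36.3% and 36.0% of nuclear genes tested at both stages. In the test of the difference between stages, 34.3% had a higher effect at 14 DAP and 26.9% a lower one. All tested nuclear genes of 14 DAP gave 23.7% and 25.2% there. Summed over the early genes, the share of nuclear counts at 14 DAP was 0.838% ± 0.007 in *zmmsh7-2* and 0.727% ± 0.024 in WT (mean ± SD of 3 libraries per genotype; two-sided exact permutation test, p = 0.1). This gap rests on Zm00001d019035, since without it the shares were 0.671% ± 0.005 in *zmmsh7-2* and 0.677% ± 0.021 in WT (mean ± SD of 3 libraries per genotype; exact permutation p = 0.7). Of the 16423 genes within 2-fold between the stages, 5400 were higher in the mutant (32.9%) and 4913 lower (29.9%). The remaining 4936 tested genes lay between these limits.

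**Figure D4:**
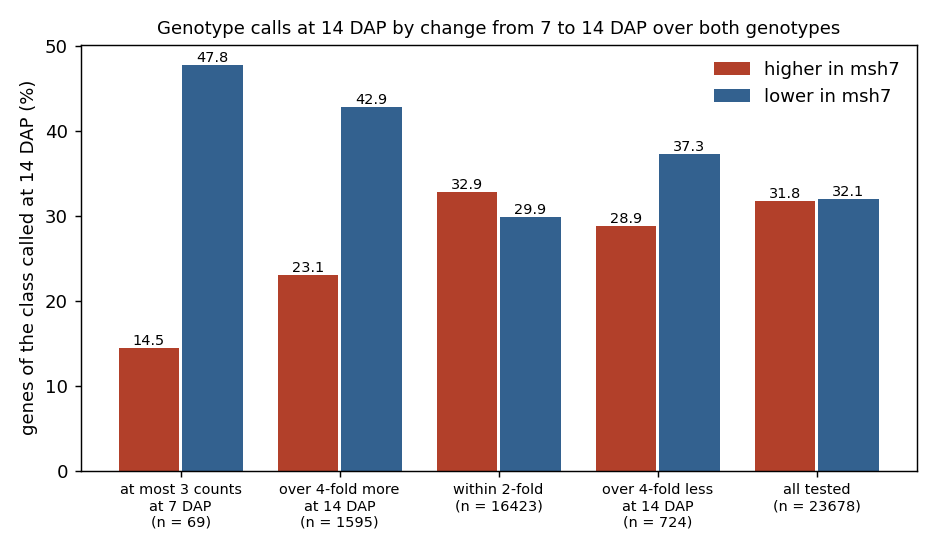
Share of nuclear genes called higher (red) or lower (blue) in *zmmsh7-2* seeds at 14 DAP, for genes grouped by their change from 7 to 14 DAP over both genotypes, with the number of genes under each group. Lower calls reach 47.8% of the genes nearly silent at 7 DAP and 42.9% of the late-rising genes, against 32.1% of all tested genes.

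Most of the changes beyond 2-fold at 14 DAP had the same direction at 7 DAP, in a comparison that shares no library with this one. Of the 1035 genes that rose by over 2-fold, 910 were tested at 7 DAP, where 650 were also higher in the mutant (71.4%), 68 were lower (7.47%) and 192 were not called. Of the 2097 genes that fell by over 2-fold, 1855 were tested at 7 DAP, where 1395 were also lower (75.2%), 123 were higher (6.63%) and 337 were not called. The background at 7 DAP was 35.6% higher and 35.6% lower, over all nuclear genes in that test. Among genes beyond 8-fold, 28 of 32 tested were also higher at 7 DAP (87.5%) and 139 of 155 also lower (89.7%), with 1 opposite call in each direction. At 14 DAP, 40 of the 47 increases and 128 of the 206 decreases beyond 8-fold had passed the filter through 1 genotype alone. Such genes can enter the 7 DAP test by the same route, which favours the same direction. These shares are therefore a description. The effects were smaller at 7 DAP, with a median log2 fold change of 0.85 against 1.37 at 14 DAP for genes that rose over 2-fold, and −0.87 against −1.46 for those that fell. The genes were chosen for their change at 14 DAP, which favours larger values there. Of the nuclear genes tested for a difference between stages, 11841 of 25158 were called (47.1%), 5767 with a higher effect at 14 DAP (22.9%) and 6074 with a lower one (24.1%).

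**Figure D5:**
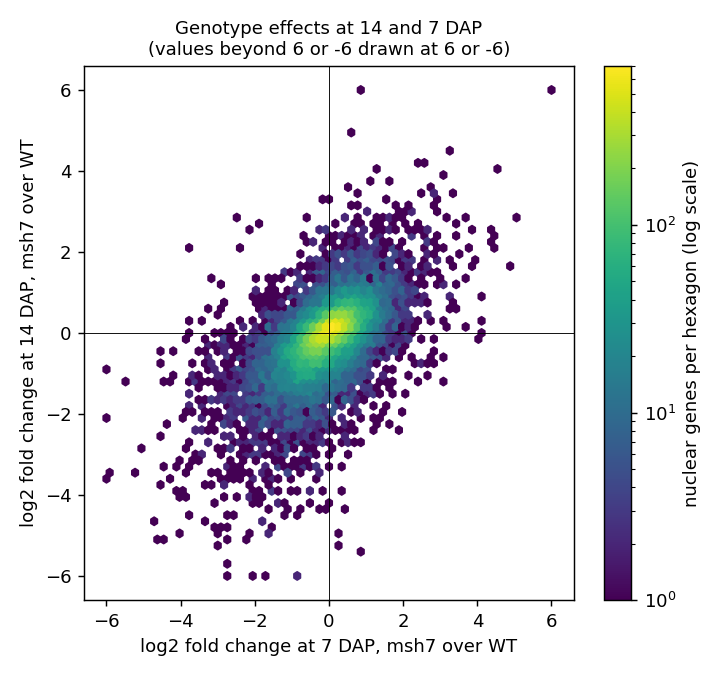
Log2 fold change of *zmmsh7-2* over wild-type seeds at 14 DAP (vertical) against that at 7 DAP (horizontal), as the number of nuclear genes per hexagon (log colour scale). Most hexagons lie in the lower left and upper right, where the genotype effects of the stages have the same sign.

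Changes beyond 4-fold occurred in most stretches of the identifier numbers. Most had no direct neighbour changed likewise, but a larger share had one than among all tested nuclear genes. Tested nuclear genes were taken in the order of their identifier numbers and divided into 236 windows of 100. The 764 genes called beyond 4-fold (3.23%) gave a median of 3 per window, with 14 windows at 0. The highest window held 12, of which 6 were higher and 6 lower in the mutant, and the next held 8. In the order of the rows of the deposited table the highest windows held 10. Of the 188 genes higher by over 4-fold, 15 had another such gene as a direct neighbour (7.98%), against 1.58% of all tested nuclear genes. Of the 576 genes lower by over 4-fold, 65 had another such gene beside them (11.3%), against 4.73% of all tested nuclear genes. In the order of the table's rows these were again 15 and, for the lower genes, 71. No run in identifier order was longer than 3 genes. These shares are a description, with no test, and adjacent gene models may share reads or be near-identical copies, which was not tested. No coordinates were used for this description.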

How the data were processed

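The authors deposited whole numbers of reads per gene, raw counts with no normalization, as 1 table for each stage. Per the labels' protocols, seed RNA was treated with DNase before library preparation (NEBNext Ultra II RNA). The submitters' processing notes list, for B73 RefGen_v4, the tools DESeq2, StringTie (1.3.6), featureCounts (1.6.4), HISAT2 (2.2.1) and Trimmomatic (0.39). Strandedness and the treatment of reads that align to several places are not stated there, so genes with near-identical copies or overlapping neighbours are uncertain.

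Columns were matched to samples by their description, case kept. Tests used edgeR 4.0.16 in R 4.3.3 on all rows (23811 tested at 14 DAP), with TMM factors, filterByExpr by genotype and robust quasi-likelihood dispersions; nuclear rows are reported. The difference between stages was the interaction term of a fit of all 12 libraries. SE is the absolute log2 fold change over the square root of F. The biological coefficient of variation was 3.28% at 14 DAP. Pairs of replicates at 14 DAP differed by more than sampling noise, at a chi-square, per degree of freedom, from 1.58 to 2.34.

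Named genes were, in each direction, the called gene with the largest change at a mean of at least 10 CPM and the most abundant called gene beyond 2-fold, both without overlap of the libraries. The comparison, groups and rules were chosen with earlier results of these data known. In simulated counts for genotype at 14 DAP (23726 rows tested), the share of changed genes recovered was 50% at 1.2-fold, 90% at 1.5-fold and 100% at 2-fold and at 4-fold. The changed genes were few and drawn only from well-counted rows, and 1 low spread was set for every gene. These shares therefore do not apply to scarce genes, or to data in which most genes change. Alternatives were RLE factors, library totals, no filter, a stricter filter, DESeq2 1.42.0, a replicate block and leaving out each library. Lists of genes by symbol could not be applied, since no table used here names the identifiers.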

Additional observations from a re-analysis of the deposited data

Results flagged for a closer look

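The fitted genotype effect differed between the stages for 3 of the 4 named genes, in the interaction term of the fit of all 12 libraries (edgeR). For Zm00001d019035 the log2 fold change at 14 DAP minus that at 7 DAP was 1.57, for Zm00001d018220 it was −5.26 and for Zm00001d044541 it was −2.54. The first was almost equal between genotypes at 7 DAP, the second was lower in the mutant at both stages, and the third was higher in the mutant at 7 DAP and lower at 14 DAP. These genes were named for their change at 14 DAP, which favours a difference from 7 DAP, so no test of it is given.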

How the results depend on the processing

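With RLE factors, library totals, no filter, DESeq2 and the replicate block, the counts of nuclear genes higher and lower, of those beyond 2-fold, and of late-rising, late-onset and early genes stayed within 1.5 times those reported. With at least 5 CPM in 3 libraries, which tests fewer genes, 328 were higher and 1047 lower beyond 2-fold. Of late-onset genes (nearly silent at 7 DAP) 4 were then higher and 12 lower. Of 835 late-rising genes 226 were higher (27.1%) and 430 lower (51.5%), and of 269 early genes 107 (39.8%) and 128 (47.6%). All nuclear genes tested under that filter gave 5932 higher and 5902 lower. A test against a 1.2-fold change, chosen after seeing the data, gave 3654 higher and 4956 lower. Presence in 1 genotype gave 1 mutant-only and 0 wild-type-only genes at 30 counts per library, and 10 and 41 with up to 3 counts allowed. Leaving out each library gave 4 to 6 mutant-only and 7 to 14 wild-type-only genes. It gave 6954 to 7238 genes higher and 7187 to 7496 lower, and 10% to 12% for the highest window. The named genes kept their direction at 14 DAP under every alternative run. They were chosen as called genes beyond 2-fold in the main run, so this adds no support. Same-numbered mutant and wild-type libraries shared little, with correlations of their deviations from −0.004 to 0.039, so the numbers were not taken as pairs. With the replicate block 7543 genes were higher and 7600 lower. No result is given for the 20468 of 44146 nuclear models under the filter, of which 10970 had 0 counts in all 6 libraries. Whether greater depth would bring others in was not tested.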
